A study of Mus musculus with 6 samples.

Results

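Exon-centred tissue-only regions are stretches of open chromatin that were called in 1 tissue of the embryonic palate, lie away from gene starts, and have their midpoint in an exon of a protein-coding gene. They were chosen by merging the peaks of all 6 libraries where they overlapped by 1 bp or more, and keeping merged regions that every library of one tissue called (3 of 3) and no library of the other did, more than 1 kb from every protein-coding transcript start (mm10, GENCODE vM21). This gave 677 members among 707876 merged regions. Of these, 273 were epithelium-only and 404 were mesenchyme-only. Because presence of a peak chose the members, their presence is given as a description, with no test.

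The samples were palatal shelves of C57BL/6 mouse embryos at E14.5, profiled by ATAC-seq, in which a transposase cuts and tags accessible DNA. Epithelium (3 libraries, basal and periderm layers together) was peeled off by hand after trypsin. What remained, which was mainly mesenchyme (3 libraries), was the control. Each library held about 20000 cells, and the sources used here differ on how many embryos or shelves were pooled for one, so the spread between libraries covers pools rather than single embryos. In bulk tissue, fewer cells with an open region and less opening per cell cannot be told apart.

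Most distal open chromatin lies in introns and between genes, but exons can also hold regulatory elements. Coding exons can carry transcription factor sites inside codons, and the last exon, which is often long and mostly 3′ UTR, can hold enhancers of its own gene or of a neighbour. Exonic DNA is usually richer in G and C than the introns around it, and coding exons more so than 3′ UTRs. In the palate, the epithelium depends on p63, Grainyhead-like (GRHL) and AP-1 factors, and the mesenchyme on Runx, Twist and homeobox factors.

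Short stretches of members that carry a motif match are shown first, 30 bases each on the plus strand of mm10, with the match in capitals. The first set gives matches in genes named by the rules stated below. It holds a p63 match in Nfib, TEAD matches (GGAATG or its complement) in Vcam1, Kif5c, Sfrp1 and Tnc, AP-1 matches (TGANTCA) in the 2 opposite Zeb2 members, and RUNX matches (TGTGGTT or its complement) in Pik3r3, Glul and Sema3e.
Nfib, epithelium-only, chr4:82497427-82497456: actgtaaaCATGGGCCGGCATGcggtttct
Vcam1, epithelium-only, chr3:116119218-116119247: gtcatgctgttgGGAATGtgcctagaccag
Kif5c, epithelium-only, chr2:49771873-49771902: ttgtttgaacatCATTCCtatacaagagtt
Sfrp1, epithelium-only, chr8:23449473-23449502: gaagatgttttaCATTCCttctcattcctg
Tnc, epithelium-only, chr4:64006159-64006188: ctctgggcatcaCATTCCtgacaagcctgg
Zeb2, epithelium-only, chr2:44988983-44989012: aggagtacctgTGATTCAtgtgctgcgagt
Zeb2, mesenchyme-only, chr2:45106572-45106601: gtgttacaaagTGAGTCAggcggctgagga
Pik3r3, mesenchyme-only, chr4:116301141-116301170: gcttccgtggcTGTGGTTtaagccttcagc
Glul, mesenchyme-only, chr1:153909530-153909559: agcgggccaacTGTGGTTtctctcttgcca
Sema3e, mesenchyme-only, chr5:14231180-14231209: atgcttcttgaAACCACAtggccttagaga

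The second set shows the GRHL letters (AACCNGTT), which 12 epithelium-only and 2 mesenchyme-only members held. Lama2, Map3k20 and Dnmt3b were picked for display after their matches were seen, and Trim66 is the other mesenchyme-only member.
Lama2, epithelium-only, chr10:26989317-26989346: tgctttagcaaAACCGGTTccatcaaagta
Map3k20, epithelium-only, chr2:72416563-72416592: acgattatctgAACCTGTTtcacttcccac
Trim66, mesenchyme-only, chr7:109475509-109475538: acaggctgggaAACCAGTTgcggtcctggc
Dnmt3b, mesenchyme-only, chr2:153665822-153665851: cctcctctgagAACCTGTTggatactatta

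The 6 peak lists held 270003, 349322 and 296695 peaks in epithelium and 295141, 341741 and 315468 in mesenchyme. They carry positions only, so read depth is unknown and a missing peak does not show closed chromatin. No pair of libraries shared more than 0.0378% of identical peaks, so no list is a copy of another. That does not show that the libraries came from separate pools. Each was counted as 1 sample. At the defining genes, the start of Trp63, which encodes the master factor of stratified epithelium, had a peak in 3 of 3 epithelium and 0 of 3 mesenchyme libraries. The starts of Krt5, Krt14, Cdh1 and Epcam, and of Twist1, Prrx1, Osr2, Pdgfra and Col1a1, had peaks in all 6 libraries, so they do not tell the tissues apart by presence.

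Members were a small share of exon-centred chromatin in either tissue. Among 15066 exon-centred distal regions with a peak in 3 or more libraries, 1.81% were epithelium-only and 2.68% mesenchyme-only, against 5.12% and 3.77% of all 194279 distal regions with that many peaks. The order of the tissues thus turned between exons and the whole. Counted the other way, 273 of 9938 epithelium-only distal regions (2.75%, 95% Wilson interval 2.44 to 3.09) and 404 of 7326 mesenchyme-only ones (5.51%, 5.01 to 6.06) were centred in an exon. Of distal regions in all 6 libraries, 10.8% were. Wilson intervals here cover counting error only, since regions of the same libraries are not independent samples.

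The count depended on single libraries. Without the first epithelium library, 680 regions would have been epithelium-only and 631 mesenchyme-only, which turned the order; the other omissions kept more mesenchyme-only regions. Without the second or the third epithelium library the counts were 488 and 893 or 669 and 759. Without the second or the third mesenchyme library they were 452 and 924 or 444 and 1068, and without the first 1148 regions were mesenchyme-only. Fewer peaks are asked for when a library is left out. Regions that narrowly missed the rule were common: 419 had all 3 epithelium peaks and 1 mesenchyme peak, and 997 had all 3 mesenchyme peaks and 1 epithelium peak.

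Epithelium-only members were centred less often in coding sequence and more often in the 3′ UTR. In epithelium, 107 of 273 midpoints lay in coding sequence (39.2%, Wilson interval 33.6 to 45.1) and 99 in a 3′ UTR (36.3%, 30.8 to 42.1). In mesenchyme, 202 of 404 lay in coding sequence (50.0%, 45.1 to 54.9) and 112 in a 3′ UTR (27.7%, 23.6 to 32.3). Both tissues were below the 57.7% coding share of all exon-centred regions in 3 or more libraries. A 5′ UTR held 3 epithelium-only and 2 mesenchyme-only midpoints. The remaining 64 and 88 lay only in exons of non-coding transcripts of the gene, mostly transcripts with a retained intron (46 and 71).

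Over all classes together, the position and length of the exons differed in the same direction. The last exon held 152 epithelium-only members (55.7%) and 195 mesenchyme-only members (48.3%), against 44.9% of the regions in 3 or more libraries. Internal exons held 96 (35.2%) and 175 (43.3%), first exons 10 and 21, and single-exon transcripts 15 and 13. The median exon was 1450 bp long for epithelium-only and 738 bp for mesenchyme-only members, and 56.0% and 46.0% of the exons exceeded 1 kb. Within the 3′ UTR class the medians were close, at 3102 and 3070 bp, and within the coding class the order turned, at 188 and 207.5 bp. In non-coding transcripts they were 2188 and 1739.5 bp. In coding members the midpoint was a median of 47 bp (epithelium) and 57 bp (mesenchyme) from the closer exon end, against 60 bp in the coding regions of 3 or more libraries. Along the exon the midpoints were spread out, with medians at 46.1 and 44.3% of its length. The coding regions, with median widths of 568 and 548.5 bp, were longer than the exons, with medians of 188 and 207.5 bp. Members in a 3′ UTR sat a median of 654 and 782 bp from the closer exon end.

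**Figure D1:**
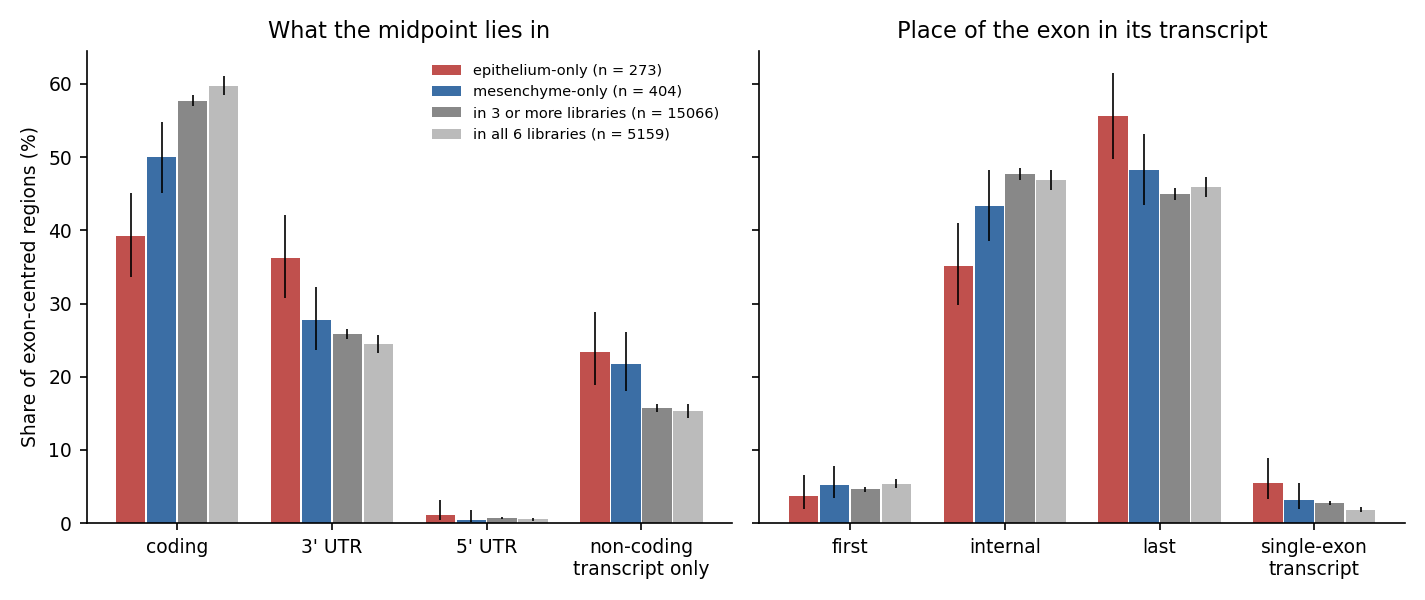
Bars show the share of exon-centred regions (percent, y axis) by what the midpoint lies in (left) and by the place of the exon in its transcript (right), for epithelium-only, mesenchyme-only, 3-or-more-library and all-6-library regions. Lines are 95% Wilson intervals. Coding sequence holds 39.2% of the epithelium-only and 50.0% of the mesenchyme-only regions.

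The member groups also differed in base composition. The central 200 bp had a median GC of 48.5% in epithelium-only and 53.5% in mesenchyme-only members, against 56.0% in all exon-centred regions in 3 or more libraries. In 162 of 273 epithelium-only members (59.3%) the centre was under 50% GC, as in 91 of 404 mesenchyme-only members (22.5%) and 12.1% of the regions in 3 or more libraries. The same shift was present outside exons, where tissue-only distal regions had medians of 46.0% and 51.0%. It also held inside each class: coding members had medians of 53.0% and 55.5%, and members in a 3′ UTR 46.0% and 52.25%.

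At like GC content the coding shares of the tissues were close under 55% GC. From 55% GC up they were higher in epithelium. Under 45% GC, 14 of 76 epithelium-only and 6 of 32 mesenchyme-only members were coding (18.4% and 18.8%). From 45 to 50% the shares were 29.1% and 27.1%, and from 50 to 55% they were 43.8% and 41.7%. From 55 to 60%, 26 of 33 and 86 of 124 were coding (78.8% and 69.4%), and at 60% and over all 14 epithelium-only and 31 of 38 mesenchyme-only members were. The Wilson intervals of the tissues overlapped in every band. Weighted to the GC bands of all exon-centred regions in 3 or more libraries, a calculation added after the data were seen, the coding share was 66.6% in epithelium and 58.5% in mesenchyme, the opposite order. The bands of 55 to 60% and of 60% and over held 38.6 and 20.3% of those regions, but only 33 and 14 epithelium-only members. The weighted shares thus lean on few epithelium-only members, and no interval was computed for them. The exon share, in contrast, was higher in mesenchyme in each band of 40% GC and over: from 50 to 55% GC, 3.11% of epithelium-only and 5.87% of mesenchyme-only distal regions were centred in exons. Under 40% GC the shares were 1.90% and 1.72%.

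**Figure D2:**
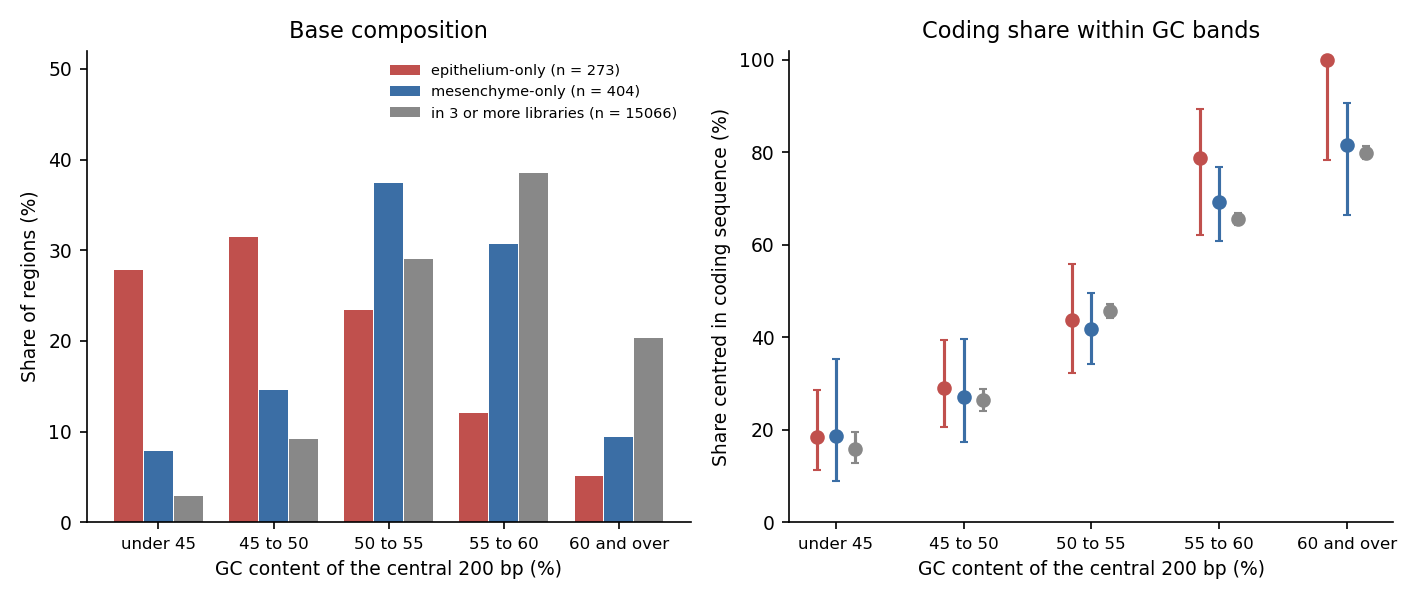
The left panel gives the share of each group of exon-centred regions (percent) by GC content of the central 200 bp, and the right panel the share centred in coding sequence within each GC band, with 95% Wilson intervals. Of the epithelium-only regions 59.3% lie under 50% GC, and within a band the intervals of the 2 tissues overlap.

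Peaks that the rule did not use were compared with the library as the unit. In each library, peaks more than 1 kb from a protein-coding start and outside the member regions were taken (19819 to 24897 exon-centred peaks per library). They were classed as coding or untranslated in the same way as members. The exon-centred share was 8.18, 7.35 and 8.07% in epithelium and 8.45, 7.99 and 8.09% in mesenchyme, and the groups overlapped (exact permutation test, two-sided, p = 0.5). With all lists cut to the same length, keeping the widest peaks, it was 8.18, 8.02 and 8.36% against 8.75, 8.76 and 8.59%, lower in all 3 epithelium libraries (exact permutation p = 0.1, adjusted p = 0.45). The coding share was 57.7, 55.8 and 57.3% in epithelium and 57.5, 56.5 and 57.1% in mesenchyme (means 57.0 ± 1.03 and 57.0 ± 0.533, SD, n = 3 each; exact permutation p = 1). The tissues' coding shares thus differed by less than the spread between libraries. The 3′ UTR share was 26.4 ± 0.756% and 26.2 ± 0.263% (SD, n = 3; exact permutation p = 0.9), and mean GC was 56.2 ± 0.392% and 56.0 ± 0.204% (SD, n = 3; exact permutation p = 0.4). With 3 libraries against 3, no exact p can fall below 0.1.

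Of 9 such features, 2 had groups that did not overlap. Exon position was read differently here than for members, where the rank of the exon in 1 chosen transcript counted. Here a peak took the first that applied of internal, last, first and single over all protein-coding transcripts. The shares are of peaks in exons of such transcripts, so they cannot be set beside the members' shares. First exons took 0.575, 0.493 and 0.498% of these peaks in epithelium and 0.469, 0.480 and 0.441% in mesenchyme. Single-exon transcripts took 1.04, 0.940 and 1.02% and 0.817, 0.908 and 0.898%. Both were higher in all 3 epithelium libraries and reached the smallest possible value (exact permutation p = 0.1, adjusted p = 0.45 over the 9 features). With equal list lengths, or with peaks of at least 300 bp, the single-exon shares overlapped (exact permutation p = 0.3 and 0.2), and the first-exon shares did not.

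**Figure D3:**
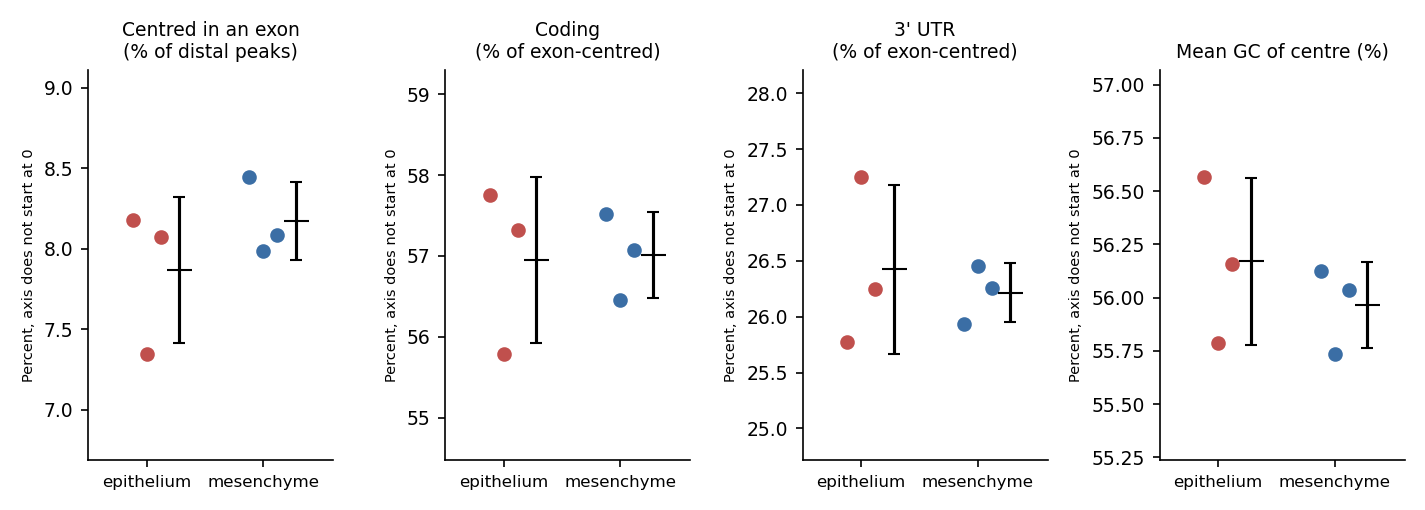
Points are single libraries, with the mean and SD (n = 3) beside them, for exon-centred peaks outside the member regions; the y axes are in percent and do not start at 0. From left to right the panels give the exon-centred share of distal peaks, the coding share, the 3′ UTR share and the mean GC of the central 200 bp, and epithelium and mesenchyme overlap in each.

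For TEAD and GRHL letters in the central 200 bp, the Wilson intervals of the member groups did not overlap. TEAD letters were present in 53 of 273 epithelium-only members (19.4%, Wilson interval 15.2 to 24.5) and 40 of 404 mesenchyme-only members (9.90%, 7.36 to 13.2), against 10.3% of exon-centred regions in 3 or more libraries. GRHL letters were present in 4.40% (2.53 to 7.52) and 0.495% (0.136 to 1.79), against 1.09%. For AP-1, RUNX and p63 letters they did overlap. AP-1 letters were present in 9.16% (6.28 to 13.2) and 5.94% (4.02 to 8.69), against 4.33%. RUNX letters had the other order, with 5.49% (3.36 to 8.87) in epithelium and 8.17% (5.88 to 11.2) in mesenchyme, against 3.89%. The p63 letters, a pair of CATG half-sites, were found in 5 epithelium-only members (1.83%, 0.785 to 4.22) and 1 mesenchyme-only member (0.248%, 0.0437 to 1.39). The share was 0.491% in exon-centred regions in 3 or more libraries, and 0.762 and 0.591% at the GC content of the members.

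Some of these differences went with base composition. When the background was weighted to the members' GC bands, also added after the data were seen, 12.7% of regions would hold TEAD letters and 1.97% GRHL letters at the epithelium-only composition, below the members' 19.4 and 4.40%. RUNX letters came to 4.53% at the mesenchyme-only composition and 5.64% at the epithelium-only one, so that the members exceeded it in mesenchyme and not in epithelium. Homeobox letters (TTAATT), at 6.23% in epithelium-only and 2.72% in mesenchyme-only members, fell below the weighted values of 7.16 and 3.24%. E-box letters (CAGGTG) were at 23.8 and 19.1%, with weighted values of 18.4 and 23.2%. No member held the NF1 letters. A match is a string of letters and does not show binding.

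In exon-centred peaks outside the members, 13 of 14 motifs had overlapping groups. The exception was TEAD, at 9.87, 10.6 and 9.96% in epithelium and 9.78, 9.69 and 9.66% in mesenchyme. It was higher in 3 of 3 epithelium libraries (10.1 ± 0.377% against 9.71 ± 0.0612%, SD, n = 3; exact permutation p = 0.1, adjusted p = 0.891 over the 14 motifs). With basic transcripts alone the TEAD groups overlapped, at 9.52, 10.4 and 9.53% against 9.53, 9.63 and 9.44% (exact permutation p = 0.7). GRHL letters were at 1.11 ± 0.125% and 1.08 ± 0.0609% (SD, n = 3; exact permutation p = 0.7), and RUNX letters at 3.34 ± 0.153% and 3.53 ± 0.157% (SD, n = 3; exact permutation p = 0.2).

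**Figure D4:**
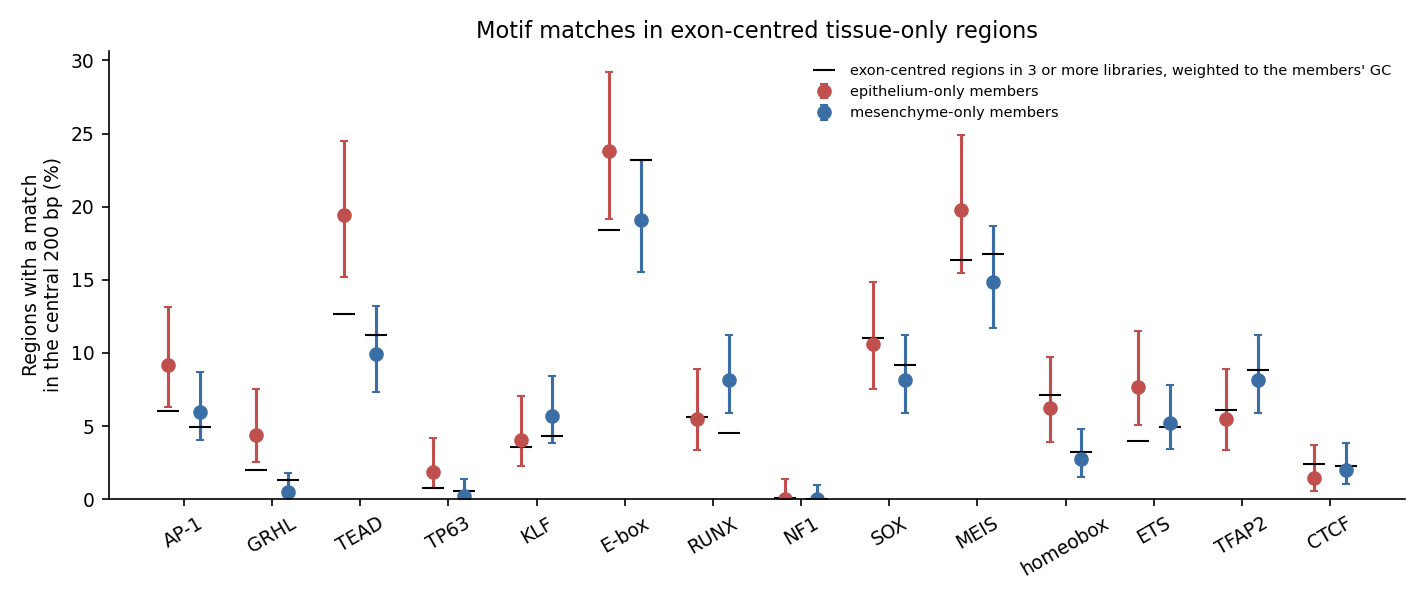
Circles give the share of members (percent, y axis) with each motif in the central 200 bp, with 95% Wilson intervals, for epithelium-only and mesenchyme-only members. Black bars give the share in exon-centred regions of 3 or more libraries weighted to the members' GC. TEAD and GRHL lie above the bar in epithelium (19.4 and 4.40%), and RUNX lies above it in mesenchyme (8.17%). Other motifs also lie above their bars, among them AP-1, ETS, p63 and E-box in epithelium and AP-1, KLF and ETS in mesenchyme.

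The members lay in 648 genes, of which 264 hosted epithelium-only and 391 mesenchyme-only members, and 7 hosted both. Genes were named by these rules: the 8 members per tissue whose narrowest peak was widest, up to 8 genes per tissue with several members (by their number, then summed width), members in 13 lists of palate and cell type genes, and genes with members of both tissues. Peak widths stand in for peak strength, since the lists give no height.

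The widest epithelium-only member lay in an exon of a non-coding transcript of 1110051M20Rik (chr2:91423960-91425191), with peaks of 1080, 1232 and 1010 bp. Vcam1, an adhesion molecule for leukocytes, followed with 912, 974 and 985 bp (chr3:116118772-116119776, a single-exon non-coding transcript). A second Vcam1 member lay in a coding exon nearby, at chr3:116120792-116121271, with narrower peaks of 386, 451 and 378 bp. In Mboat2, a lysophospholipid acyltransferase, the peaks were 1153, 1148 and 875 bp wide in the 3′ UTR (chr12:24963306-24964458). In Jam2, a junctional adhesion molecule, they were 841, 940 and 971 bp wide, again in the 3′ UTR. Ano4, an anoctamin, and Astn2, an astrotactin, had theirs on internal coding exons of only 148 and 75 bp, so the regions of 962 and 1151 bp were longer than the exons. Sptlc2, a subunit of the enzyme that starts sphingolipid synthesis, and Minar2 completed the 8.

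The widest mesenchyme-only members were narrower. The member in a coding exon of Trim66 (chr7:109474810-109476086) had peaks of 700, 1077 and 850 bp. Sema3e, a secreted semaphorin, had peaks of 784, 673 and 555 bp in a non-coding transcript (chr5:14230732-14231515). Rpgrip1 of the cilium, Abca17, a transporter, and Cass4, a docking protein, held coding members, and Pik3r3, a regulatory subunit of PI 3-kinase, and Rapgef1, an exchange factor for Rap1, held members in the 3′ UTR. The centre of the Gm14410 member was 87.0% repeat-masked, and the gene belongs to a family with near-identical copies, so its peaks could be shared with them and are uncertain. Over all members the narrowest of the 3 peaks had a median width of 277 bp in epithelium and 248 bp in mesenchyme.

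**Figure D5:**
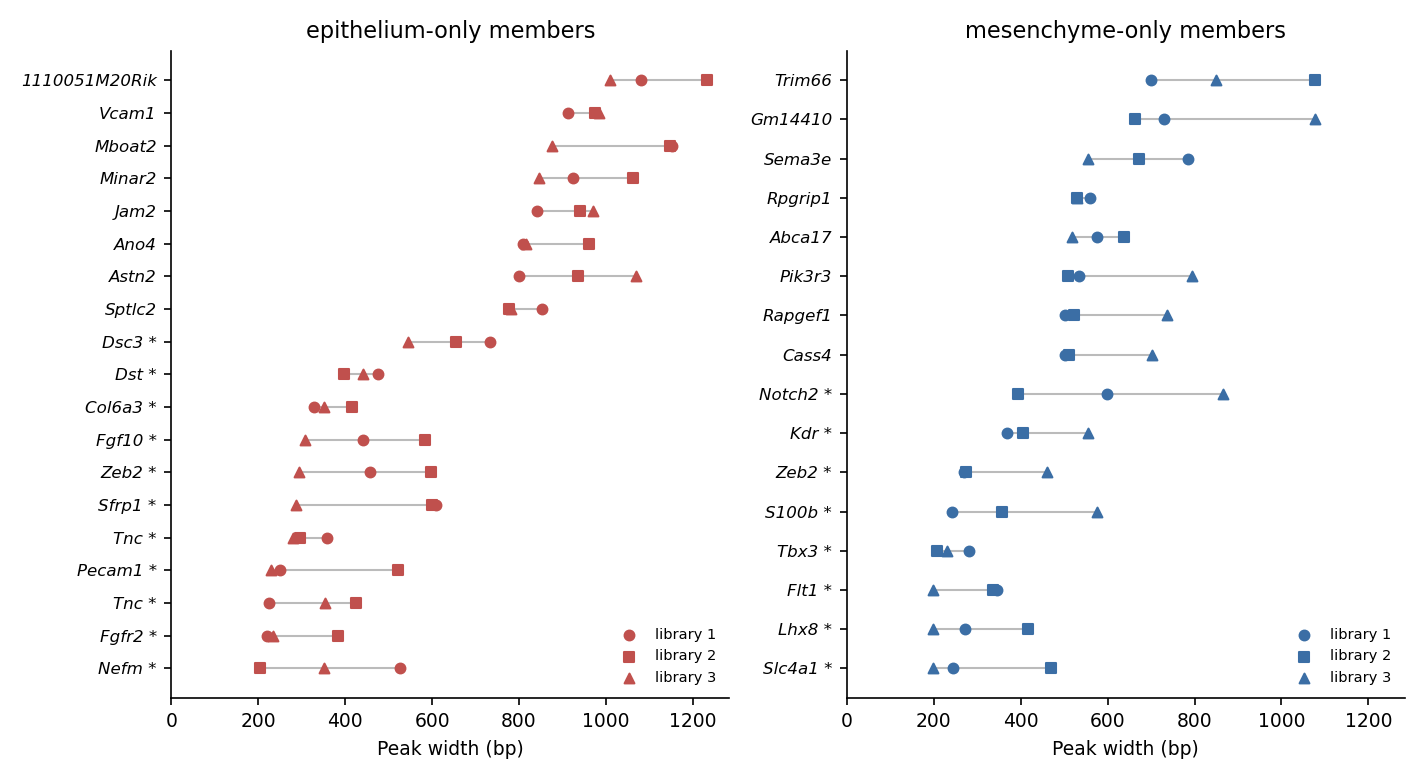
Each symbol is the width in bp (x axis) of the peak of 1 library in an epithelium-only (left) or mesenchyme-only (right) member, for the 8 widest members of each tissue and for named members in listed genes (asterisk). A grey line joins the libraries of a member. The widest members reach 1010 bp in every epithelium library (1110051M20Rik) and 700 bp in every mesenchyme library (Trim66).

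A few genes held several members. Nfib, a transcription factor of the nuclear factor I family, had 3 epithelium-only members. One lay in a coding exon (chr4:82497983-82498594; 585, 612 and 487 bp), another close by in a retained-intron exon (chr4:82497188-82497718; 273, 343 and 531 bp, with the p63 letters shown above), and the other in a distant retained-intron exon (chr4:82327036-82327495). Its introns held 8 more epithelium-only and 1 mesenchyme-only region. Tnc, which encodes the matrix protein tenascin C, had 2 epithelium-only coding members, with peaks of 224, 425 and 353 bp at chr4:63982458-63982897 and of 357, 295 and 281 bp at chr4:64006046-64006459. Its introns held 3 epithelium-only and 1 mesenchyme-only region. Ano4, Rasgef1b, Vcam1, Kif5c, Myoz2 (a Z-disc protein of muscle) and Vwf (von Willebrand factor) also had 2 epithelium-only members each.

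In mesenchyme, Cep250, a linker of the centrosomes, had 3 members on separate internal coding exons between chr2:155961920 and 155995605. Glul, which encodes glutamine synthetase, had 3 close together, 1 in a coding exon (334, 578 and 339 bp) and 2 in the 3′ UTR (316, 338 and 199 bp, and 430, 201 and 454 bp). Nek2, a centrosomal kinase, Sh2b2, an adaptor, Mettl16, a methyltransferase, Rcan3, a regulator of calcineurin, Ubr4, a ubiquitin ligase, and Fam221b had 2 each. In all, 11 genes had several mesenchyme-only members, and those beyond the 8 are not named.

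In genes with members of both tissues, each tissue had peaks called at a different place in the gene. A missing peak there does not show closed chromatin in the other tissue. Zeb2, a repressor of epithelial genes, had an epithelium-only member in its last coding exon (chr2:44988668-44989281; 457, 598 and 293 bp) and a mesenchyme-only member in a non-coding transcript (chr2:45106293-45106963; 269, 275 and 461 bp). Kif5c, a kinesin, had 2 epithelium-only members in its 3′ UTR and a mesenchyme-only one at a coding exon. Foxo1, a forkhead factor, had an epithelium-only member in the 3′ UTR (301, 361 and 348 bp) and a mesenchyme-only one upstream in coding sequence (820, 250 and 514 bp). Mpp7, a scaffold of cell junctions, Cdcp1, a surface glycoprotein, Txndc16 and Supt3 were the others, the last pair named after their values were seen.

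The 13 lists held 289 genes and 359 exon-centred regions in 3 or more libraries, of which 11 were epithelium-only (3.06%) and 9 mesenchyme-only (2.51%), against 1.81% and 2.68% over all genes. The periderm list, the epithelial transcription factors, the osteogenic and cartilage list, the immune list and the muscle list held none. Over the 4 epithelial lists, 2 of 108 exon-centred regions were epithelium-only and none was mesenchyme-only: Dst, which encodes the hemidesmosomal plakin, in a coding exon of 5292 bp (chr1:34190753-34191331; 476, 397 and 440 bp), and Dsc3, a desmosomal cadherin, in the 3′ UTR (733, 654 and 544 bp). Over the 3 mesenchymal lists the members went both ways, with 4 epithelium-only (Zeb2, Col6a3 and 2 in Tnc) and 3 mesenchyme-only (Lhx8, Tbx3 and Zeb2) among 98.

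Lhx8, a LIM homeobox factor of oral mesenchyme, held its mesenchyme-only member in a non-coding first exon (chr3:154324610-154325128; 271, 418 and 199 bp). Tbx3, a T-box factor, held one in an internal coding exon (chr5:119675402-119675943; 282, 207 and 231 bp). Both were narrow, and 199 bp was the smallest width among members, reached by the narrowest peak of 43 epithelium-only and 71 mesenchyme-only members. Of the signals and receptors, Fgf10, Fgfr2 and Sfrp1, a secreted Wnt antagonist, held epithelium-only members, and Notch2, a Notch receptor, held a mesenchyme-only one. The Notch2 member, on a coding exon of 111 bp, was the widest of these (598, 395 and 866 bp). The Fgf10 and Fgfr2 members lay in exons of non-coding transcripts, and the Sfrp1 member in the 3′ UTR.

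Genes of other cell types were among the hosts in both tissues. The 5 lists for endothelial, immune, muscle, nerve and glial, and erythroid cells held 2 epithelium-only (2.44%) and 4 mesenchyme-only (4.88%) of 82 regions. Over all exon-centred regions in 3 or more libraries the shares were 1.81% and 2.68%. These small counts depend on which genes were listed. Vwf, with 2 epithelium-only members, was in none of the lists. Pecam1 and Nefm, a neurofilament, held epithelium-only members. Kdr and Flt1, receptors for vascular endothelial growth factors, S100b and Slc4a1, the red cell anion exchanger, held mesenchyme-only ones. The narrowest of their peaks ranged from 199 to 368 bp, and what these cells contribute to either tissue was not tested.

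The starts of the host genes were open in nearly all libraries. A peak within 1 kb of a protein-coding start was present for 93.2, 93.9 and 93.6% of epithelium-only hosts in epithelium and 93.6, 90.9 and 93.2% in mesenchyme (exact permutation p = 0.5). For mesenchyme-only hosts the values were 95.4, 96.2 and 94.9% and 95.9, 96.2 and 95.9% (exact permutation p = 0.4). Over all protein-coding genes the means were 79.1 and 79.2%. Thus 234 of 264 and 363 of 391 hosts had a start-site peak in all 6 libraries. Only Minar2, Tmprss11a and Zpld1 among the epithelium-only hosts had start peaks in all 3 epithelium libraries and no mesenchyme library (1.14%, against 0.316% of all genes), and no mesenchyme-only host had the opposite pattern, which 0.229% of all genes showed. These 3 genes were named after their values were seen.

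Epithelium-only regions in introns of host genes, called by the same contrast and so a description, were present in 96 of 257 genes with only epithelium-only members (37.4%) and in 72 of 384 with only mesenchyme-only members (18.8%). Mesenchyme-only intronic regions were present in like shares, 25.7 and 25.5%. The mesenchyme-only hosts held 165 epithelium-only and 155 mesenchyme-only intronic regions in all. Over all protein-coding genes the shares were 10.8 and 10.7%. The median gene length per member was 69010 bp in epithelium and 40913.5 bp in mesenchyme. Over exon-centred regions in 3 or more libraries it was 34441.5 bp. The shares over all protein-coding genes were not matched for gene length.

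The number of peaks per gene outside member regions was fitted for 18178 genes with limma on log2(peaks scaled to the mean list length + 1). The median difference, epithelium minus mesenchyme, was 0.11 over 258 epithelium-only hosts and −0.12 over 387 mesenchyme-only hosts, against 0.00051 over all genes. It was above 0 in 152 of 258 (58.9%), 134 of 387 (34.6%) and 50.1%. At an unadjusted p under 0.05, 31 of 258 epithelium-only hosts were higher in epithelium and 13 lower. Of 387 mesenchyme-only hosts, 14 were higher and 45 lower. Among all genes tested, 4.51% were higher and 5.73% lower. The peak numbers include intronic tissue-only regions called by the same contrast, and hosts were not matched to other genes for length. After Benjamini-Hochberg adjustment, 0.033% of genes were higher in epithelium and 0.0055% lower, and among hosts this was 1 gene.

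That gene was Tmprss11a, a transmembrane serine protease of squamous epithelia. Outside its member it had 7, 8 and 7 peaks in epithelium and 0, 1 and 1 in mesenchyme (log2 difference 2.45, SE 0.33, limma adjusted p = 0.0276). The groups did not overlap, but the adjusted p lay between 0.0572 and 0.287 under every alternative run, including each omitted library. It was named after its values were seen. Its member lay in a coding exon (chr5:86414311-86414876; 358, 566 and 403 bp). Among the named hosts, Nfib had 69, 89 and 69 peaks in epithelium and 52, 70 and 58 in mesenchyme (log2 difference 0.39, SE 0.12, limma adjusted p = 0.257). Sema3e, host of a mesenchyme-only member, had 10, 17 and 7 in epithelium and 4, 6 and 5 in mesenchyme, in the other direction from its member (log2 difference 1.03, SE 0.28, limma adjusted p = 0.226). Neither passed the test.

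Values at the distance limit were as follows. The members closest to a protein-coding start were in Mro, epithelium-only, at 1175 bp and in Oxa1l, mesenchyme-only, at 1002 bp. The regions just outside the limit were in Gm428 (epithelium-only, 961 bp) and Mrpl48 (mesenchyme-only, 935 bp).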

How the data were processed

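Peak calls of 3 epithelium and 3 mesenchyme ATAC-seq libraries were used. As the methods text and the submitters' processing notes have it, reads were trimmed by the authors (Trimmomatic 0.38), who then aligned them to mm10 (Bowtie2), removed duplicates (SAMtools), kept fragments under 100 bp and called peaks per library (MACS2 2.1.1). deepTools 2.0 is also named. For the cutoff on peaks, the value was not given in the sources used here. The deposited lists hold chromosome, start and end, with no score, so read-based tests could not be run.

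Peaks were merged at 1 bp overlap and annotated with GENCODE vM21 at the midpoint, in the order coding, 5′ UTR, 3′ UTR, non-coding transcript. Sequence came from RefSeq's GRCm38 assembly (mm10). GC and motifs were read in the central 200 bp, on both strands. Libraries were compared by exact two-sided permutation tests (scipy 1.17.1). Peaks per gene, for genes with a mean of at least 1, were fitted with limma 3.58.1 (R 4.3.3) with trend, after a check on simulated counts. Members, gene lists and motifs were chosen with earlier results of these data known. Named genes followed the rules given in the text, with exceptions said there. Alternatives were other distances, overlaps, midpoints, width limits, list lengths, annotations, scalings and pseudocounts, a replicate block and each omitted library. Same-numbered libraries of the tissues are tied by no label, and the deviations of their gene values correlated at 0.0453, 0.047 and 0.0053. A member of a listed gene counted in the totals is not reported here by name.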

Additional observations from a re-analysis of the deposited data

How the results depend on the processing

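Of 195 recomputed values, 140 were classed as kept, 45 as moved and 10 as weaker. A count was kept within a set fold of the main count, and a coding share within its Wilson interval. A difference was kept if its sign held, and a per-library share unless it reversed without overlap. The replicate block leaves the start-site differences unchanged, so they were kept by construction. The 10 weaker values were the alternative fits of Tmprss11a. Allowing 1 peak on the other side gave 692 epithelium-only and 1401 mesenchyme-only regions, with coding shares of 47.0 and 55.8%. Omitting 1 library at a time, which asks for fewer peaks, gave 388 to 680 and 631 to 1148 regions, with coding shares of 40.1 to 45.1% and 49.3 to 53.6%. Basic transcripts alone, which leave out most retained introns, gave coding shares of 51.9 and 64.0%. Common GC bands, with few epithelium-only members at high GC, gave 66.6 and 58.5%. In all other settings run the coding share stayed higher in mesenchyme. The number of exon features without overlap (2) was 1 with peaks of at least 300 bp, 2 with equal list lengths (the exon-centred share in place of single-exon transcripts) and 2 to 3 with a library omitted. The number of such motifs (1) was 2 with equal list lengths (TEAD and homeobox), 2 with basic transcripts (p63 and SOX, not TEAD) and 1 to 4 with a library omitted (3 without epithelium library 2, 4 without mesenchyme library 1). With the replicate block, all pairs moved one way for 4 features and 4 motifs (smallest possible exact p = 0.25). The number of genes with more peaks in epithelium (6) was 29 without scaling, 0 without the filter on low values, 0 with the replicate block and 0 to 10 with a library omitted (3 without epithelium library 1, 1 without epithelium library 2, 10 without mesenchyme library 1 and 0 without mesenchyme library 2 or 3). The number with fewer (1) was 22 without scaling, 0 without the filter, 0 with the replicate block and 0 to 1 with a library omitted. At an unadjusted p under 0.05, the limma fit with the replicate block had 843 and 1003 genes and the one without the filter 893 and 1069. The start-site difference of hosts with a library omitted was 0.189 to 1.52 percentage points for epithelium-only and −0.853 to −0.213 for mesenchyme-only hosts. Medians of host peak numbers kept their sign in every setting, and leaving out scaling moved the median of all genes to −0.053. Causes of these changes beyond construction were not tested. Same-numbered libraries share only a number. Each epithelium library correlated best with the mesenchyme library of its own number, but only at 0.0453, 0.047 and 0.0053, which does not establish pairing. Depth in reads is unknown and limits every absence of a peak.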
